A study of Mus musculus with 28 samples.

Results

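The 8 genes Pik3r1, Pik3ca, Pik3cb, Pik3cd, Akt2, Tsc1, Tsc2 and Mtor carry core parts of PI3 kinase and mTOR signalling, and their DNA copy number was read in 24 mouse tumours. They were chosen by name, with earlier results of these data known, and placed by their RefSeq spans on GRCm38. They are 8 of 20665 autosomal protein-coding genes for which a value was read in every tumour. Copy number came from exome sequencing, which captures the protein-coding parts of the genome. The mice had a germline p53 change on a strain background labelled 50% BALB/C and 50% C57BL6, and tumours were collected at the animals' end point. AD mice carried an allele that gives dimeric p53 opposite a null allele (p53 AD/-), and RP mice an allele that gives monomeric p53 opposite a null allele (p53 RP/-), so all groups share the null allele. Thymic lymphomas, T-cell tumours of the thymus, numbered 7 AD and 7 RP, and sarcomas, tumours of connective tissue, 5 AD and 5 RP. The 4 ear samples labelled as normal controls were not analysed here. The labels name a different animal for each tumour, so each tumour is 1 replicate, and tumours are numbered in accession order. The study's stated question is how the genomes of such tumours differ with the dimeric against the monomeric form of p53.

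PI3 kinases of class I pair a catalytic subunit with a regulatory subunit and add a phosphate to membrane lipids when a receptor is engaged. The lipid product recruits Akt kinases, which switch off the complex of Tsc1 and Tsc2, and that complex otherwise holds back the kinase mTOR, the driver of protein synthesis and cell growth. In developing T cells the pathway passes on signals of the antigen receptor, cytokines and Notch, and it is active in many T-cell leukaemias and sarcomas.

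A value is the log2 copy ratio of the deposited segment that covers a gene, where 0 is no change against the comparison DNA and -1 is the loss of 1 copy of a pair in every cell. A gene was called gained at 0.3 or above and lost at -0.3 or below. Per tumour the files held 59 to 517 segments over 211948 to 212450 markers; read depth is unknown. The label of the thymic lymphomas was checked on the T-cell receptor beta locus (chromosome 6, 40891296 to 41558371), which T cells cut out in part when they rearrange it. The lowest segment there ran from -4.81 to -0.75 in thymic lymphomas, with a short segment at or below -1 in 13 of 14, and from -0.34 to 0.0049 in sarcomas, with 0 of 10. Trp53, the engineered gene on chromosome 11, was called lost in 0 of 24 tumours. Autosomal marker totals did not overlap between groups: for thymic lymphomas they were 204845 to 204849 (AD) and 204917 to 204922 (RP), for sarcomas 205075 to 205076 (AD) and 205073 to 205074 (RP). Any processing that differed between groups with these totals therefore cannot be told apart from genotype or tumour type.

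None of the 8 genes was cut by a segment end: each lay inside 1 segment in all 24 tumours, and 0 of them were touched by a segment of at most 10 Mb at or below -1, as 2.69% of all genes were in at least 1 tumour. The shortest stretch that stayed unbroken around a gene in all 24 tumours ran from 0.814 Mb with 24 genes at Akt2 to 13.9 Mb with 53 genes at Pik3ca. Every value below therefore belongs to a block of neighbouring genes as much as to the gene that is named. Pik3cd and Mtor, which lie about a megabase apart on chromosome 4, shared 1 segment in all 24 tumours, so their values are identical and they count as 1 observation. Values stayed close to the chromosome around them. Akt2, Pik3ca and Tsc1 differed from the median of their chromosome by 0.1 or more in 0 tumours, Pik3r1, Pik3cb and Tsc2 in 1 each, and Pik3cd and Mtor in 4.

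**Figure D1:**
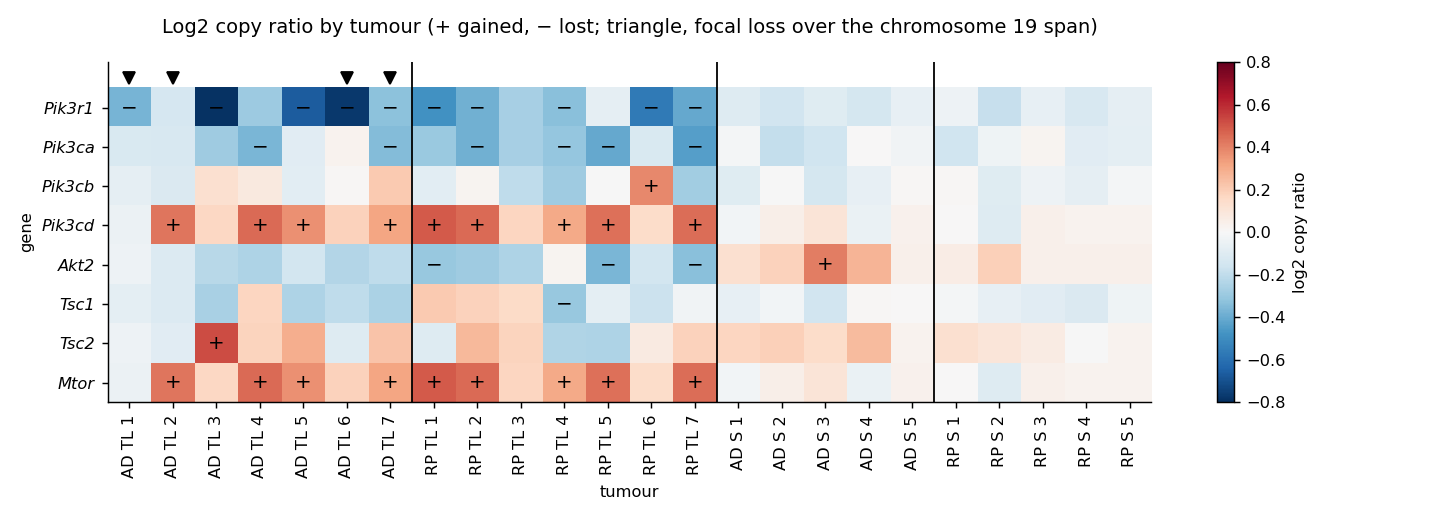
Log2 copy ratio of each of the 8 genes (down) in each of the 24 tumours (across; TL, thymic lymphoma; S, sarcoma), with a plus for values of 0.3 or above, a minus for values of -0.3 or below and a triangle over the 4 tumours with a focal loss over the chromosome 19 span. Pik3r1 was lost in 10 and Mtor and Pik3cd were gained in 9 of 14 thymic lymphomas, while 1 of 80 sarcoma values reached a cutoff.

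In thymic lymphomas the 8 genes were gained in 20 and lost in 20 of 112 gene by tumour values, which is 17.9% for each, against 1.25% gained (1 of 80) and 0 of 80 lost in sarcomas. Over all autosomal genes the shares in thymic lymphomas were 10.4% gained and 18.0% lost, and in sarcomas 1.83% gained and 0.714% lost. The losses of the 8 genes thus stood at the level of the genome. The gains lay in Pik3cd and Mtor, 9 tumours each, with 1 tumour each for Pik3cb and Tsc2. Because Pik3cd and Mtor repeat each other, 9 of the 20 gains are the same segments counted again. By genotype, AD thymic lymphomas had 16.1% of values gained and 12.5% lost, where all genes had 10.3% and 13.2%. RP thymic lymphomas had 19.6% gained and 23.2% lost, where all genes had 10.5% and 22.9%. With each tumour centred on the median of its autosomes, the 8 genes in thymic lymphomas had 28 gains and 7 losses, where all genes had 18.9% of values gained and 5.82% lost.

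Pik3r1, which encodes the alpha regulatory subunit that stabilises the catalytic subunits and holds them inactive until a receptor is engaged, had the lowest mean of the 8 genes in thymic lymphomas. It lies at chromosome 13, 101680761 to 101768217. Its log2 copy ratio ran from -0.79 through a median of -0.37 to -0.13 in AD thymic lymphomas, and from -0.57 through -0.38 to -0.07 in RP thymic lymphomas. In AD sarcomas the values were -0.11, -0.15, -0.10, -0.14 and -0.06, and in RP sarcomas -0.04, -0.18, -0.07, -0.13 and -0.07. All 24 tumours were below 0, and the 10 tumours with a called loss, 5 AD and 5 RP, were all thymic lymphomas. With centring the losses numbered 5, and at a cutoff of -0.5 they numbered 4. AD thymic lymphomas 3, 5 and 6, at -0.79, -0.66 and -0.77, were lower than every RP thymic lymphoma, where the lowest value was -0.57, in tumour 6. A value of -0.79 is a copy ratio of 0.579.

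The lost segments over Pik3r1 were mostly shorter in AD than in RP thymic lymphomas, with an overlap at RP thymic lymphoma 6, as a description with no test. In the 5 AD tumours with a loss they spanned 19.1, 12.6, 21.1, 20.3 and 17.6 Mb and started between 99228332 and 100425381. In the 5 RP tumours they spanned 28.1, 101, 100.3, 20.0 and 50.9 Mb. The start at 100307026 was the same in AD thymic lymphoma 3 and RP thymic lymphoma 6. In RP sarcomas 1 and 2, at -0.04 and -0.18 and not called lost, the segment started nearby, at 100315983 and 100315434. Chromosome 13 held 8 to 22 segments in these AD tumours and 5 to 17 in these RP tumours. The source of the starts and lengths was not tested. The stretch lost in all 10 runs from 100425381 to 112859643, which is 12.4 Mb, and its shortest segment, in AD thymic lymphoma 3, holds 693 markers. The rest of chromosome 13 was at much the same level, since Pik3r1 departed from the chromosome median by -0.13 to 0.04 over the 24 tumours. Of all autosomal genes, 590 (2.86%) were lost in at least 10 of 14 thymic lymphomas, and 577 of these lie on chromosome 13.

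Pik3ca encodes the alpha catalytic subunit, expressed in most tissues and often mutated in human carcinomas. It lies at chromosome 3, 32397065 to 32466112. Its values ran from -0.37 through -0.13 to 0.03 in AD thymic lymphomas and from -0.44 through -0.31 to -0.12 in RP thymic lymphomas. In AD sarcomas they were -0.01, -0.19, -0.16, 0.0034 and -0.03, and in RP sarcomas -0.16, -0.03, 0.02, -0.09 and -0.08. The groups overlapped, and a loss was called in 2 AD and 4 RP thymic lymphomas, which was 2 in all with centring, and in 0 sarcomas. RP thymic lymphoma 1 missed the cutoff at -0.2987. At least 6 losses in 14 thymic lymphomas were reached by 17.0% of all genes. The shortest lost segment over Pik3ca was 29.6 Mb, in RP thymic lymphoma 7, and in RP thymic lymphomas 2 to 5 1 segment of 156 Mb covered the whole measured chromosome.

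Pik3cb encodes the beta catalytic subunit, which receptors coupled to G proteins can engage. It lies at chromosome 9, 99038402 to 99140235. Its values ran from -0.11 to 0.21 in AD thymic lymphomas and from -0.28 to 0.39 in RP thymic lymphomas, and from -0.14 to 0.01 in all sarcomas. Thymic lymphomas lay on both sides of 0, with 6 above and 8 below. The 1 gain, in RP thymic lymphoma 6, came with a segment of 116 Mb, where 47.6% of all genes were gained in at least 1 thymic lymphoma. With centring Pik3cb was gained in 2.

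Pik3cd encodes the delta catalytic subunit, which is enriched in leukocytes, and Mtor the kinase at the end of the pathway. They lie on chromosome 4, at 149649168 to 149702566 and at 148448582 to 148557685. Their shared value ran from -0.05 through 0.31 to 0.46 in AD thymic lymphomas and from 0.15 through 0.44 to 0.49 in RP thymic lymphomas. In AD sarcomas it was -0.02, 0.04, 0.10, -0.05 and 0.04, and in RP sarcomas 0.0049, -0.10, 0.04, 0.03 and 0.03. AD thymic lymphoma 1 was the only thymic lymphoma below 0, and the other 13 were above every sarcoma. A gain was called in 4 AD and 5 RP thymic lymphomas, with RP thymic lymphoma 4 exactly at 0.3, and in 0 sarcomas.

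Gains of Mtor were among the most frequent of the genome in thymic lymphomas. At least 9 gains in 14 tumours were reached by 218 genes (1.05%), all on chromosome 4. The stretch gained in all 9 tumours is 7.10 Mb, from 147828669 to 154926598, and the shortest segment, in RP thymic lymphoma 1, spanned 7.93 Mb and 1428 markers. The segment over Mtor reached the last marker of the chromosome, 156349920, in 12 thymic lymphomas and 8 sarcomas. It began at the same marker, 147825730, in 4 thymic lymphomas and 1 sarcoma and at 147052515 in 2 and 2, which is 0.623 and 1.40 Mb before Mtor. Such starts occurred in sarcomas with values near 0 as well, and their source was not tested.

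Akt2 encodes a kinase downstream of PI3 kinase that is best known for insulin-stimulated glucose uptake. It lies at chromosome 7, 27591552 to 27640826. Its values ran from -0.25 through -0.20 to -0.04 in AD thymic lymphomas and from -0.37 through -0.29 to 0.02 in RP thymic lymphomas. In AD sarcomas they were 0.13, 0.19, 0.41, 0.27 and 0.04, and in RP sarcomas 0.06, 0.19, 0.04, 0.04 and 0.04. Every sarcoma was above every thymic lymphoma, with 10 of 10 sarcomas above 0 and 13 of 14 thymic lymphomas below 0. The nearest were RP thymic lymphoma 4 at 0.0209 and RP sarcoma 3 at 0.0381. With centring the tumour types overlapped, with RP thymic lymphoma 4 at 0.27 and RP sarcoma 3 at 0.05. The cutoff was passed by 3 RP and 0 AD thymic lymphomas, as losses, and by AD sarcoma 3, as a gain. With centring 0 thymic lymphomas had the loss. At least 3 losses in 14 thymic lymphomas were reached by 38.2% of all genes. The segment over Akt2 was as short as 0.814 Mb with 226 markers, in AD thymic lymphoma 7, and in 5 tumours it covered at least 80% of the chromosome.

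Tsc1 and Tsc2 encode partners of the complex that restrains mTOR, Tsc1 as its scaffold and Tsc2 as the part that turns off the small GTPase Rheb. Tsc1 lies at chromosome 2, 28640993 to 28691172, and Tsc2 at chromosome 17, 24595816 to 24632676. Tsc1 ran from -0.26 through -0.20 to 0.17 in AD thymic lymphomas and from -0.30 through -0.03 to 0.21 in RP thymic lymphomas, against -0.15 to 0.01 in sarcomas. It was called lost in RP thymic lymphoma 4 alone, in a segment of 72.7 Mb, where 65.1% of all genes were lost in at least 1 thymic lymphoma, and with centring it was lost in 0 and gained in 1. Tsc2 ran from -0.11 through 0.18 to 0.52 in AD thymic lymphomas and from -0.25 through 0.07 to 0.26 in RP thymic lymphomas. In AD sarcomas Tsc2 was at 0.17, 0.19, 0.15, 0.25 and 0.03, and in RP sarcomas at 0.13, 0.10, 0.07, -0.0047 and 0.03. It was called gained in AD thymic lymphoma 3 alone, in a segment of 79.8 Mb, where 47.6% of all genes were gained in at least 1. With centring Tsc2 was gained in 5 thymic lymphomas.

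**Figure D2:**
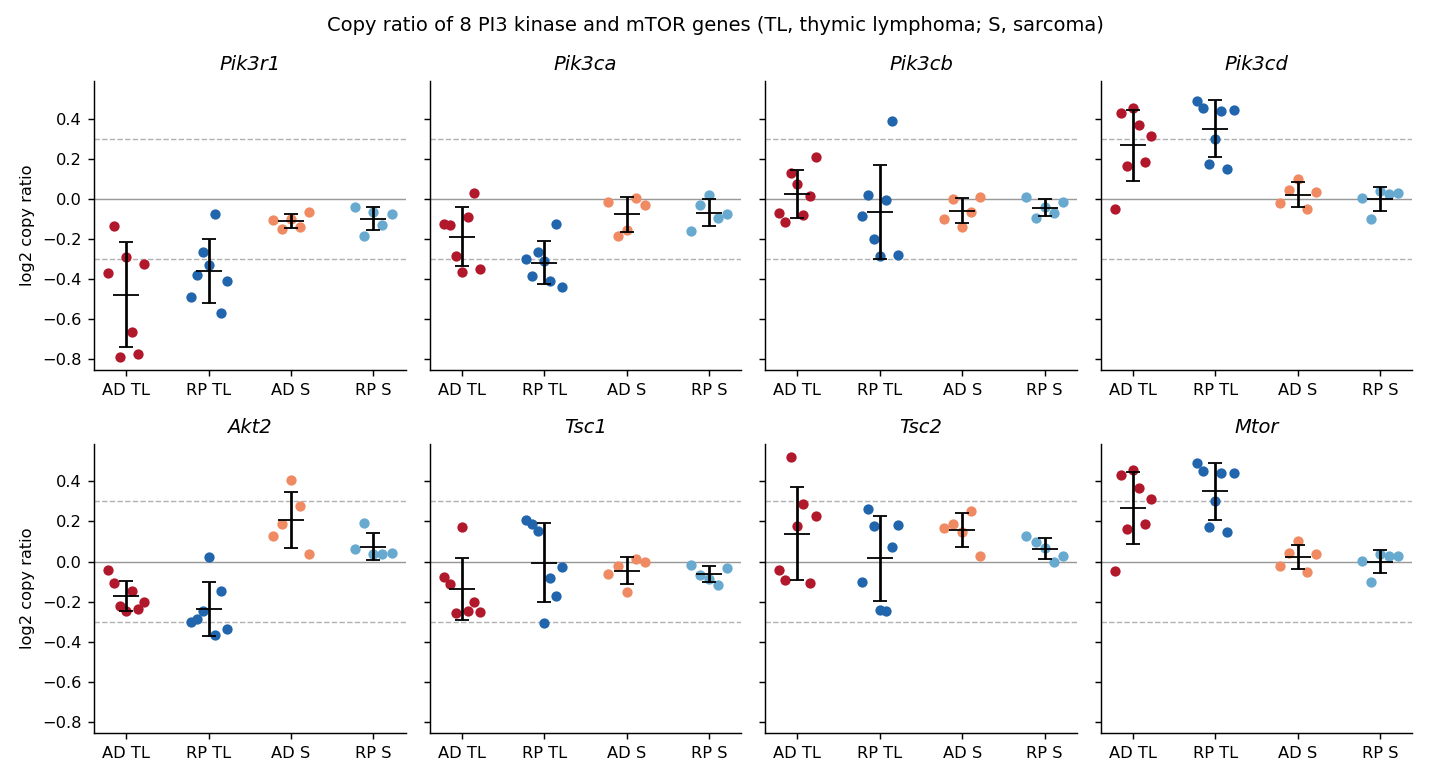
Log2 copy ratio (vertical axis) of each gene in AD and RP thymic lymphomas (TL) and AD and RP sarcomas (S); each point is a tumour, bars give mean ± SD and dashed lines the cutoffs of 0.3 and -0.3. With the deposited values Akt2 separates the tumour types without overlap, and with centring it does not. Pik3r1 reaches -0.79 in AD thymic lymphomas, and Pik3cd and Mtor are the same segments.

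Thymic lymphomas differed from sarcomas at 5 of the 8 genes. Pik3cd and Mtor, which count as 1 observation, were higher, and Pik3r1, Pik3ca and Akt2 were lower. The test was a two-sided permutation test within genotype, adjusted by Benjamini-Hochberg over all 20665 genes, and it called 39.8% of all genes, 5.69% higher and 34.1% lower. Genes at or above the difference of Mtor were 1.0% of the genome, and genes at or below that of Akt2 7.5%, of Pik3r1 12.9% and of Pik3ca 24.1%. The median difference was -0.03 over the 8 genes and -0.04 over all genes.

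Mtor and Pik3cd averaged 0.31 ± 0.16 in thymic lymphomas and 0.01 ± 0.06 in sarcomas (SD, n = 14 and 10), a difference of 0.30 ± 0.05 (SE, permutation test, adjusted p = 0.000486). Akt2 averaged -0.20 ± 0.11 in thymic lymphomas and 0.14 ± 0.13 in sarcomas, a difference of -0.35 ± 0.05 (permutation test, adjusted p = 0.000178). Its unadjusted p of 1e-05 is the smallest this permutation test can give. With the deposited values the groups of Akt2 did not overlap, as for 2.56% of all genes with thymic lymphomas wholly below sarcomas. With centring the groups of Akt2 overlapped.

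Pik3r1 averaged -0.42 ± 0.22 in thymic lymphomas and -0.11 ± 0.05 in sarcomas, a difference of -0.31 ± 0.06 (permutation test, adjusted p = 0.00165). Pik3ca averaged -0.25 ± 0.14 in thymic lymphomas and -0.07 ± 0.07 in sarcomas, a difference of -0.18 ± 0.04 (permutation test, adjusted p = 0.0066). Pik3cb, Tsc1 and Tsc2 did not pass, with differences of 0.03 ± 0.05, -0.02 ± 0.05 and -0.03 ± 0.06 (permutation test, adjusted p = 0.748, 0.845 and 0.754). For these 3 genes the thymic lymphomas spread more widely than the sarcomas, with SDs of 0.18, 0.18 and 0.22 against 0.05, 0.05 and 0.08.

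The median log2 of all autosomes was itself lower in thymic lymphomas, at -0.12 ± 0.07, than in sarcomas, at -0.03 ± 0.03 (SD). With each tumour centred on that median, Pik3ca no longer passed, with a difference of -0.09 (permutation test, adjusted p = 0.156). Across its alternatives the adjusted p of Pik3ca ran from 0.00173 without AD thymic lymphoma 6 to 0.415 in AD tumours alone (permutation tests). Genes called numbered 4515 with centring, 32.2% of them higher, and 8224 without it, 14.3% of them higher. Mtor, Pik3cd, Akt2 and Pik3r1 passed with either scale.

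Within genotype the permutation tests are exact and the groups smaller. In AD tumours alone Akt2 passed and the other 7 genes did not, where 9.34% of all genes were called. In RP tumours alone the same 5 genes passed as in all tumours, where 36.1% of all genes were called. The direction of these 5 genes was the same in AD and RP tumours: Mtor differed by 0.25 ± 0.07 and 0.35 ± 0.06, Akt2 by -0.38 ± 0.07 and -0.31 ± 0.06, Pik3r1 by -0.37 ± 0.10 and -0.26 ± 0.07, and Pik3ca by -0.11 ± 0.07 and -0.25 ± 0.05 (SE).

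**Figure D3:**
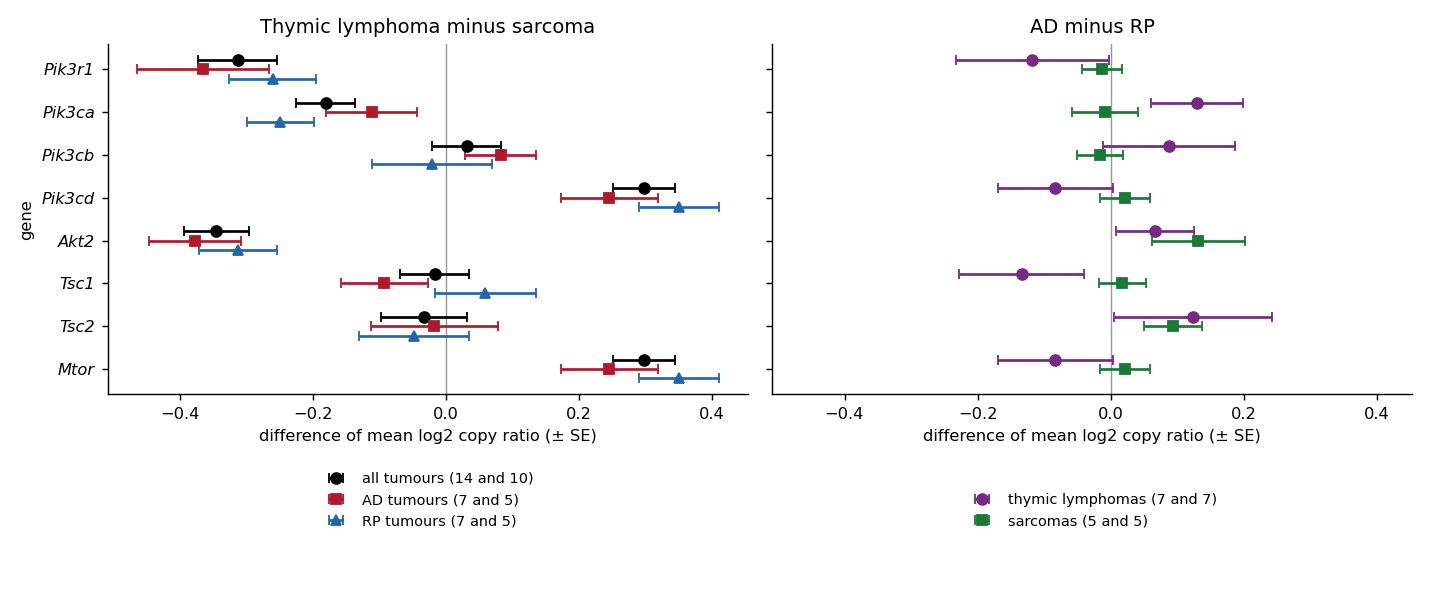
Difference of mean log2 copy ratio (horizontal axis, ± SE) for each gene, on the left thymic lymphoma minus sarcoma in all, AD and RP tumours, and on the right AD minus RP in thymic lymphomas and in sarcomas. Mtor and Pik3cd lie near 0.30 and Akt2 near -0.35 on the left, and on the right 0 of 8 genes passed the adjusted test in either tumour type.

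Between AD and RP thymic lymphomas 0 of the 8 genes passed (two-sided exact permutation test, 0.0% of all genes called), and 0 of 8 had an unadjusted p under 0.05, against 8.55% of all genes. In limma 0 of 8 passed as well, where 0 genes were called genome-wide, and 0 had an unadjusted p under 0.05, against 18.8% of all genes. The differences that stood furthest from 0 were those of Tsc1, -0.13 ± 0.09, Pik3ca, 0.13 ± 0.07, Tsc2, 0.12 ± 0.12, and Pik3r1, -0.12 ± 0.12 (SE, n = 7 each). This order rested on single tumours: without AD thymic lymphoma 3 the difference of Pik3r1 was -0.0658 and that of Tsc2 0.0605, without RP thymic lymphoma 6 that of Pik3cb was 0.162, and without AD thymic lymphoma 1 that of Mtor and Pik3cd was -0.0304. Pik3ca had the smallest p (exact permutation test, p = 0.0862, adjusted p = 0.545), with a mean of -0.19 ± 0.15 in AD and -0.32 ± 0.11 in RP tumours (SD). Pik3r1 averaged -0.48 ± 0.26 in AD and -0.36 ± 0.16 in RP tumours, and the groups overlapped. Mtor and Pik3cd averaged 0.27 ± 0.18 in AD and 0.35 ± 0.14 in RP tumours, a difference of -0.08 ± 0.09. Pik3cb differed by 0.09 ± 0.10 and Akt2 by 0.07 ± 0.06.

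Between AD and RP sarcomas 0 of the 8 genes passed (exact permutation test, 0.0% of all genes called), and 0 had an unadjusted p under 0.05, against 5.07% of all genes. In limma 0 of the 8 passed, where 18 genes (0.0871%) were called, and 0 had an unadjusted p under 0.05, against 0.615% of all genes. Akt2 was at 0.21 ± 0.14 in AD and 0.07 ± 0.07 in RP sarcomas (SD), and differed by 0.13 ± 0.07 (SE, n = 5 each, exact permutation test, p = 0.119). Tsc2 was at 0.16 ± 0.08 in AD and 0.06 ± 0.05 in RP sarcomas, and differed by 0.09 ± 0.04 (exact permutation test, p = 0.0714). The other 6 genes differed by 0.0222 or less in size. The term for a genotype difference that depends on tumour type passed for 0 of the 8 genes in limma (adjusted p = 0.7 to 0.87), with 0.0871% of all genes called and 0 of the 8 at an unadjusted p under 0.05, against 8.09% of all genes.

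The exact tests have little room after adjustment. The smallest p is 0.000583 for 7 against 7 and 0.00794 for 5 against 5. No gene can pass unless at least 241 and 3281 genes, in that order, pass together.

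Changes of Pik3r1, Mtor and Pik3ca were counted together in each thymic lymphoma. Pik3r1 was lost in 10 and Mtor gained in 9 of the 14, so some overlap had to occur. Whether they met more often than these counts alone would give was not tested. Pik3r1 was lost and Mtor gained together in 6 of 14 thymic lymphomas, 2 AD and 4 RP. Pik3r1 alone was lost in 4, Mtor alone was gained in 3, and neither changed in 1, RP thymic lymphoma 3, where 0 of the 8 genes reached a cutoff. Pik3ca was lost in 6 thymic lymphomas, and Mtor was gained in all 6. Mtor was above Pik3r1 in 24 of 24 tumours, by 0.73 ± 0.22 in thymic lymphomas and by 0.12 ± 0.05 in sarcomas (SD). The gap ran from 0.32 to 1.03 in thymic lymphomas and from 0.05 to 0.20 in sarcomas, without overlap. In thymic lymphomas Pik3r1 had the lowest and Mtor, with Pik3cd, the highest mean of the 8 genes. Each gene also differed between the tumour types, so the gap restates those differences and received no test of its own. The genes altered per tumour numbered 2.29 ± 1.11 in AD and 3.43 ± 1.81 in RP thymic lymphomas (SD, n = 7 each), and AD sarcoma 3 was the only sarcoma with any. These numbers count Pik3cd and Mtor, the same segments, as 2 genes. Over all genes 13.2% of values were lost in AD and 22.9% in RP thymic lymphomas, and 10.3% and 10.5% were gained. In sarcomas 1.83% of all values were gained and 0.714% lost.

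Tsc2 in AD thymic lymphoma 4 was the only value that stood 0.3 or more from the median of its chromosome. The segment over Tsc2, at chromosome 17, 23945559 to 32625121, spans 8.68 Mb and 2450 markers and lay at 0.18, which is 0.95 above the chromosome median of -0.78. Chromosome 17 was broken into 46 segments in this tumour, against 2 to 27 in the other 23 tumours. Of its length, 82.3% was at or below -0.3, with 99.8% of the length distal to the Tsc2 segment and 62.6% of the length proximal to it. Tsc2 thus lay in a stretch near 0 on a chromosome most of which was lost, and the gene itself was not called changed.

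**Figure D4:**
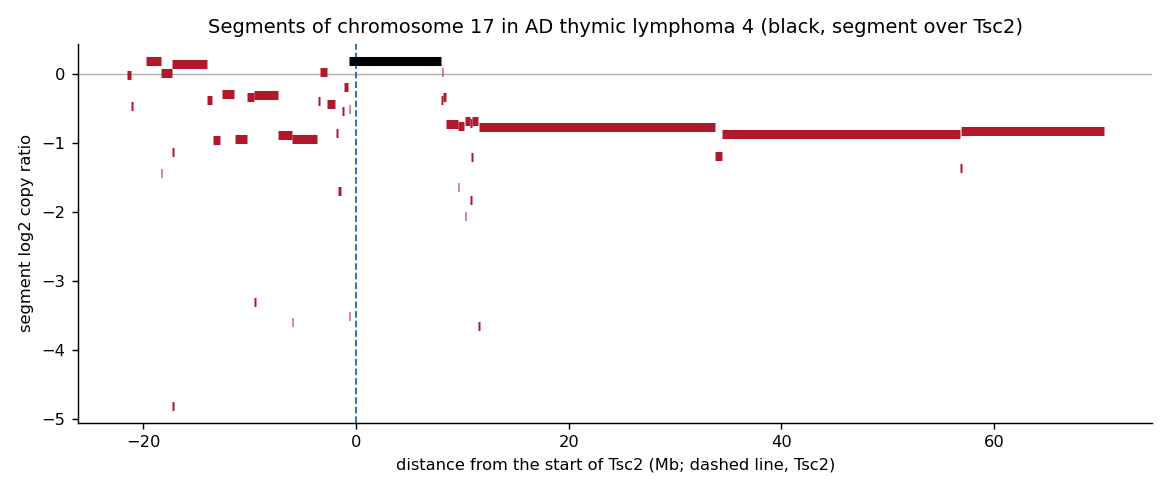
Segments of chromosome 17 in AD thymic lymphoma 4, by distance from the start of Tsc2 (Mb, horizontal axis) and log2 copy ratio (vertical axis); the segment that holds Tsc2 is black and the dashed line marks the gene. The Tsc2 segment lies at 0.18 for 8.68 Mb while the longest distal segment, of 22.4 Mb, lies at -0.88.

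The 8 genes were set beside a focal loss on chromosome 19. The span from 32757577 to 32826160 was touched by a segment of at most 10 Mb at or below -1 in 4 of 7 AD thymic lymphomas, 0 of 7 RP thymic lymphomas, 0 of 5 AD sarcomas and 0 of 5 RP sarcomas. In AD thymic lymphoma 1 the segment was at -4.23 over 199.7 kb and 34 markers, and in AD thymic lymphoma 2 at -3.39 over 63.7 kb and 12 markers. These are ratios of 0.0533 and 0.0953, and each covered 90.8% of the span and ended at the same marker, 32819842. In AD thymic lymphomas 6 and 7 the segment was at -1.28 and -2.19, with the same ends, 32756117 and 32758444, over 2.33 kb and 4 markers, which is 1.27% of the span.

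The short losses in AD thymic lymphomas 6 and 7 came from libraries with many of them. Losses of at most 10 markers and 50 kb numbered 93 and 169 in these tumours, against 11 to 37 in the other 12 thymic lymphomas, and 15 genes (0.0726%) were touched by a focal loss in both. Without segments of fewer than 5 markers the count of tumours with a focal loss over the span was 2, AD thymic lymphomas 1 and 2. A focal loss in at least 4 AD thymic lymphomas was found for 2 of all genes (0.00968%), and with 0 RP thymic lymphomas for 1 (0.00484%). The value nearest to the cutoff among the tumours without such a loss was -0.66, in AD thymic lymphoma 5, in a segment that covered most of the chromosome. In all 20 tumours without it the span lay in a segment of at least 27.3 Mb.

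The 8 genes differed among these 4 tumours, and a split by a measured loss received no test. In AD thymic lymphoma 1 Pik3r1 was lost, at -0.37, and the other 7 genes lay between -0.12 and -0.04. In AD thymic lymphoma 2 Mtor and Pik3cd were gained, at 0.43, and Pik3r1 was at -0.13. In AD thymic lymphoma 6 Pik3r1 was lost, at -0.77, with Mtor at 0.18. In AD thymic lymphoma 7 Pik3r1 was lost, at -0.33, Pik3ca was lost, at -0.35, and Mtor and Pik3cd were gained, at 0.31. The loss over the span and the loss of Pik3r1 thus met in 3 of the 4 tumours, while Pik3r1 was lost in 7 of the 10 thymic lymphomas without it. Tsc1, Tsc2, Akt2 and Pik3cb were called changed in 0 of the 4.

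**Figure D5:**
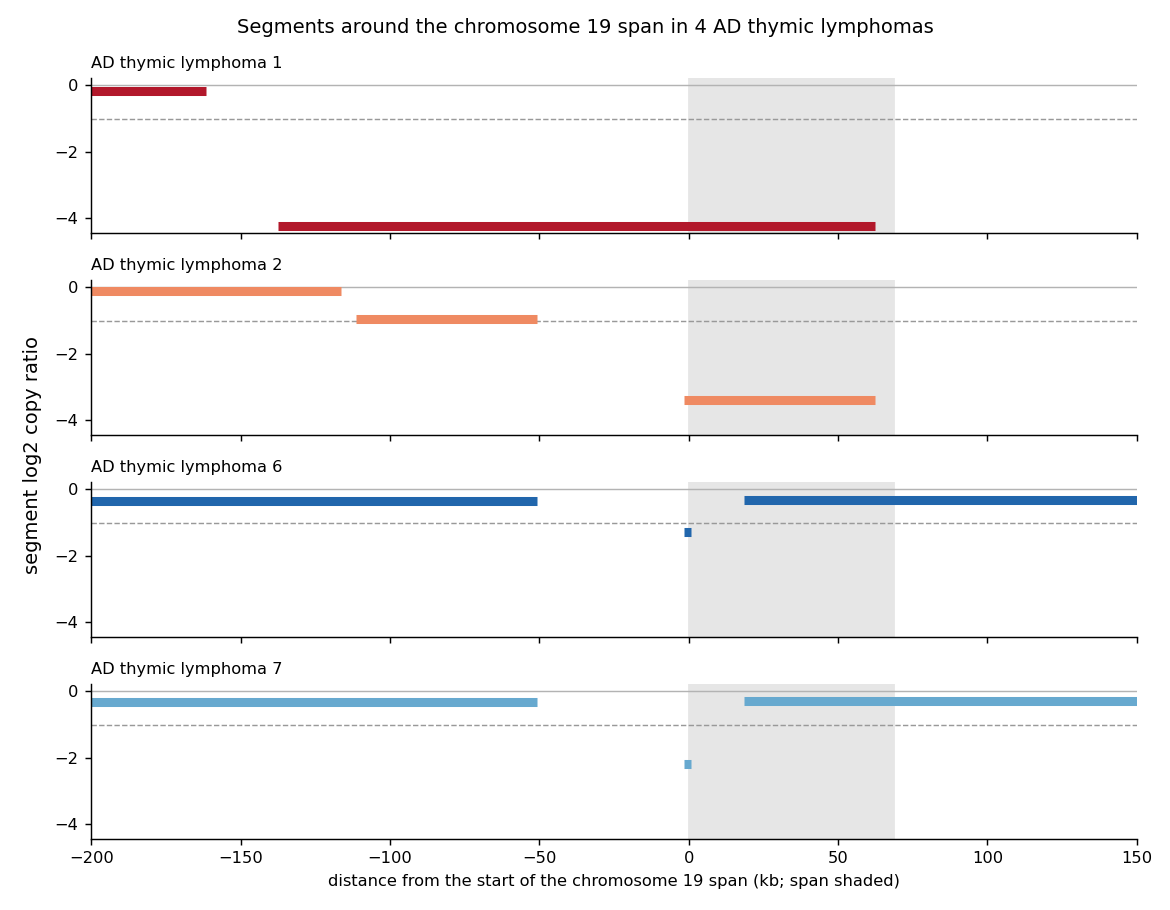
Segments around the chromosome 19 span in the 4 AD thymic lymphomas with a focal loss there, by distance from the start of the span (kb, horizontal axis; span shaded) and log2 copy ratio (vertical axis; dashed line at -1). The loss covers most of the span in tumours 1 and 2 and 2.33 kb at its start in tumours 6 and 7.

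The other genes of the pathway formed a list of 58. Between thymic lymphomas and sarcomas 7 of the 58 were higher and 16 lower (permutation test within genotype, adjusted over all genes), where 5.69% of all genes were higher and 34.1% lower, and their median difference was -0.02. With the deposited values these calls followed whole chromosomes. On each of the 18 chromosomes with a gene of the list, either every list gene was called in the same direction or none was. All 7 higher genes lie on chromosome 4 with Mtor and Pik3cd, and the lower genes include 4 of 4 on chromosome 7 with Akt2, 6 of 6 on chromosome 8, 2 of 2 on chromosome 3 with Pik3ca and 1 of 1 on chromosome 13 with Pik3r1. The 7 higher genes were Rragc and Rragd, Rag GTPases that bring mTOR to the lysosome, at 0.29 each, the kinase subunit Prkaa2 at 0.29, Sesn2 at 0.29, the regulatory subunit Pik3r3 at 0.28, and Rraga and Rps6 at 0.28 and 0.26. The lower genes with the largest differences were Akt1s1, a subunit of mTOR complex 1, at -0.43, and Pik3c2a and Gsk3a at -0.35 each. They were followed by the receptor Igf1r at -0.34 and Tbc1d7, the further subunit of the TSC complex, at -0.33. Akt1s1 was at -0.90 in AD thymic lymphoma 7, where focal losses of 4 and 5 markers touched it, and its difference includes that value. With centring 9 of the 58 were higher and 5 lower, where 7.04% of all genes were higher and 14.8% lower. On chromosome 5 part of the list genes were then called higher and part were not. List genes on chromosomes 3, 8, 18 and 19 were no longer called. Between AD and RP, 0 of 58 passed in thymic lymphomas and 0 of 58 in sarcomas, as did 0.0% of all genes in each (exact permutation test).

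Values at or beyond 1 occurred among the 58 in 2 tumours, while the 8 genes stayed between -0.79 and 0.52. Akt1, the kinase related to Akt2 (chromosome 12, 112653821 to 112674884), was at 4.80 in AD thymic lymphoma 6, in a segment of 590.2 kb with 229 markers, and at 1.17 in AD thymic lymphoma 5, in a segment of 273.4 kb with 93 markers. Akt2 in the same tumours was at -0.23 and -0.15. Pik3cg, the gamma catalytic subunit (chromosome 12, 32173397 to 32208677), was at 2.69 in AD thymic lymphoma 6, in a segment of 756.9 kb. That segment ended inside the gene, at 32203991, so the value covers part of it. Pik3c2g, a class II PI3 kinase, was at 1.30 in AD thymic lymphoma 5, in a segment of 5061.6 kb.

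The likeness of each gene to the list was measured as Pearson's r of the log2 copy ratio over the 14 thymic lymphomas, among list genes on other chromosomes, as a description with no test. Such values share a tumour, its normal cells and its centring. Pik3cb had the highest values, with Flcn and Pik3r5 on chromosome 11 at 0.81 each. Akt2 was nearest to Ddit4 and Stk11, at 0.71 each, Pik3ca to Akt1 and Pik3cg, at 0.69 and 0.68, and Mtor and Pik3cd to Rictor and Deptor, at 0.65 and 0.57. Tsc1 was nearest to Phlpp1 and Rictor, at 0.58 each, Pik3r1 to Rictor and Deptor, at 0.46 and 0.45, and Tsc2 to Pik3c2g and Sesn3, at 0.43 and 0.39. Neighbours such as Flcn and Pik3r5 have nearly the same values. The r of Pik3ca with Akt1 includes the value of 4.80, and that with Pik3cg the value of 2.69, both in AD thymic lymphoma 6.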

How the data were processed

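Copy number was taken from 1 deposited segment table for each of 24 tumours, per the file headers with a chromosome, start, end, number of markers and segment mean. These deposited means were read as log2 copy ratios of tumour over a comparison DNA, though the headers name no base. Markers, per the file headers, are counted per segment. They were taken to be capture targets or windows rather than reads. Per the submitters' processing notes, reads of 150 nt were handled with Trim Galore 0.6.5, BWA 0.7.17 and GATK 4.1.0.0 on GRCm38; how segments were made, centred and compared is not given in the sources used here. Admixed normal cells move values towards 0.

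Each gene took the overlap-weighted mean of the segments over its RefSeq span on GRCm38.p6, or the nearest segment. A focal loss was a segment of at most 10 Mb at or below -1. AD was set against RP by exact two-sided permutation over 3432 splits (7 against 7) or 252 (5 against 5), and thymic lymphomas and sarcomas with 100000 resamples within genotype. P-values were adjusted by Benjamini-Hochberg over 20665 genes with a threshold of 0.05, and the 8 genes in 3 comparisons make 24 tests. limma 3.58.1 in R 4.3.3 was the alternative and gave the interaction. Python 3.11.15, numpy 2.4.6, pandas 2.3.3, scipy 1.17.1 and matplotlib 3.10.9 were used. The permutation tests were also run on simulated data in which each gene varied on its own. Real genes change in blocks, so that run does not bear on the adjustment over linked genes. The number of tumours limits the precision.

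The 8 genes and the list of 58 were chosen with earlier results of these data known. Genes named were the 8, those of the 58 at or beyond 1 or -1 in any tumour, the 5 largest called differences in each direction and the 2 most alike on another chromosome, and the T-cell receptor beta locus. Trp53, and Rraga and Rps6, which complete the higher calls, were added after their values were seen. Alternatives were gene value, centring, test, 1 Mb bins, cutoffs, genotype alone and leaving out each tumour; leaving out AD thymic lymphomas 6 and 7, and dropping segments of fewer than 5 markers over the span, were chosen after seeing the data.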

Additional observations from a re-analysis of the deposited data

Results flagged for a closer look

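Within the 4 tumour groups, 32 sets of values (8 genes by 4 groups) were searched for a tumour that stands far from the others by Dixon's criterion, which chance meets in about 1 in 20 sets. In RP sarcoma 2 the shared value of Pik3cd and Mtor was -0.10, for Pik3cd as for Mtor, where the other 4 RP sarcomas lay between 0.0049 and 0.04. In the same tumour Akt2 was at 0.19, where the other 4 lay between 0.04 and 0.06. RP sarcoma 2 had 152 segments, the most among the 10 sarcomas. Tsc1 was at 0.17 in AD thymic lymphoma 4, where the other 6 AD thymic lymphomas lay between -0.26 and -0.08. The source of these values was not tested.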

How the results depend on the processing

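The count of the 8 genes called stayed at 0 between AD and RP in each tumour type under every alternative run, and at 5 between thymic lymphomas and sarcomas except for 4 with centring and 1 in AD tumours alone; RP tumours alone, with the same group sizes, gave 5, and the cause was not tested. Directions turned only for genes that did not pass: between thymic lymphomas and sarcomas Tsc1 was at 0.0715 and Tsc2 at 0.0556 with centring, Tsc1 at 0.0004 without AD thymic lymphomas 6 and 7, and in RP tumours alone Pik3cb at -0.0209 and Tsc1 at 0.0587. Without 1 tumour at a time, Pik3cb ran from -0.007 to 0.0489 and Tsc1 from -0.0429 to 0.0079 in that comparison. Between AD and RP sarcomas, Pik3r1 ran from -0.0338 to 0.0015, Pik3ca from -0.031 to 0.0197, Pik3cd and Mtor each from -0.0033 to 0.0406 and Pik3cb from -0.0332 to 0.0043. Gains in thymic lymphomas numbered 1 at a cutoff of 0.5 and 28 with centring, against 20 at 0.3. Losses there numbered 40 at a cutoff of 0.2, 4 at 0.5 and 7 with centring, against 20. Gains in sarcomas numbered 3 at 0.2 and 0 at 0.5, against 1. The focal losses over the chromosome 19 span numbered 2 without segments of fewer than 5 markers, and 4 with a limit of 3 Mb or none. Over all genes, the calls between thymic lymphomas and sarcomas were 4515 with centring, 1455 higher and 3060 lower, against 8224, 1175 higher and 7049 lower; the cause was not tested. No paired analysis was possible because the labels give no replicate numbers, and numbers in accession order pair no tumours. Markers per segment and the number of tumours limit what can be seen, since read depth is unknown.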

Other observations

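Focal losses touched other genes of the pathway list, though 0 of the 8 genes, and are given as values with no test. In AD thymic lymphoma 7 a segment of 758.64 kb and 6 markers at -1.10 touched Inpp4b, which encodes a phosphatase of PI3 kinase lipid products. In the same tumour Akt1s1 was touched by segments of 4 markers at -2.37 and 5 markers at -1.19, and Sgk1, a kinase downstream of mTOR complex 2, by a segment of 12 markers at -1.10. This tumour had the most segments of the 24, 517, and its focal losses touched 396 genes. In RP thymic lymphoma 3, the tumour in which 0 of the 8 genes reached a cutoff, a segment of 2 markers at -1.09 touched Pik3c3, the class III PI3 kinase. These genes were named after their values were seen.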
